A study of Mus musculus with 20 samples.

Results

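Neural progenitor cells (NPCs) in this study carried 300 tiles of 12500 bp in which acetylation of histone H3 at lysine 27 (H3K27ac) was densest away from promoter-like H3K4me3. The 300 tiles, called members here, were taken from 196986 full tiles of chromosomes 1 to 19, of which 18189 were dropped because they held a 1 kb bin with at least 4 RPM of H3K4me3 in ES cells or liver, and 7461 held no read in any library. Members are the tiles with the largest NPC H3K27ac RPM minus ES H3 RPM, where RPM is reads per 1000000 distinct reads of the library. They make up 0.175% of the 171336 tiles tested and cover 3.75 Mb. The levels of NPC H3K27ac, ES H3 and H3K4me3 chose the members and are given as a description, with no test. Positions are 1-based as the files give them, and no chromosome of the files runs past its length in mm8.

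H3K27ac marks active enhancers and promoters, and H3K4me1 marks enhancers whether active or not. p300 is an acetyltransferase that writes H3K27ac, and its binding is used to find enhancers. Rfx1, a winged-helix factor, binds X-box motifs. NPCs are dividing cells that give rise to neurons and glia. Whole cell extract (WCE) and total H3 libraries show how reads fall without enrichment for a mark.

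NPCs were derived from 129JAE-C57/B6 ES cells by plating embryoid bodies of 4 days, selecting for 5 to 7 days in ITSFn medium and culturing with FGF and EGF, and gave 1 H3K27ac and 1 Rfx1 library. The other cells were perfused whole liver (H3K4me1, H3K27ac, H3K4me3, H3 and WCE), mouse embryonic fibroblasts (MEFs; H3K4me1 and H3), MEF-derived iPS cells (H3K4me1) and ES cells. ES H3K4me1 was measured once each in 129JAE-C57/B6 cells, in 129JAE-C57/B6 cells with the dox inducible 4f2a transgene, and in C57/B6 inbred cells. ES H3K27ac and ES p300 had 2 libraries each, and ES H3, H3K4me3 and WCE 1 each, all from 129JAE-C57/B6 cells. The ES and iPS cells were grown on irradiated MEFs and then for 1 or 2 passages without them. The NPC line is a culture from 1 ES background, and the liver is a mixture of its cell types. A lower level in a library can come from fewer marked cells or from less mark per cell, which cannot be told apart. No marker gene could be checked, because no gene annotation of the build of the files was used here, so the cell names rest on the labels.

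The 20 libraries held 704647 to 14455156 distinct reads. The shallowest was NPC Rfx1, in which 72.5% of reads repeated a position and strand already seen, and the ES H3K4me3 library had 70.0% repeats. NPC Rfx1 and NPC H3K27ac had no replicate, and no NPC background library was used here. Each liver, MEF and iPS library was single as well, so only counting error can be estimated for them, and their spread between libraries is unknown. The background libraries were themselves higher at members than elsewhere. The mean over members was 1.69 times the mean over all tiles in ES WCE, 1.44 times in ES H3, 1.83 times in liver WCE and 1.79 times in MEF H3. Marks below are therefore given beside a background library.

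NPC H3K27ac had a median of 56.9 RPM at members (39.3 to 252 RPM), against a median of 1.15 RPM over all tiles. The 300 members held 2.04% of all distinct NPC H3K27ac reads. The last tiles inside the threshold were chr16:43487501-43500000, with 42.8 RPM of NPC H3K27ac and 7.82 RPM of ES H3, and chr8:56275001-56287500, with 39.3 and 4.38 RPM. The first outside were chr1:14287501-14300000, with 40.1 and 5.11 RPM, and chr16:39900001-39912500, with 39.8 and 5.00 RPM. The edge is thus a smooth one, and tiles on its sides differed little.

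Most members were not marked over their whole width. Of the 25 bins of 500 bp in a tile, a median of 10 reached 1 RPM of NPC H3K27ac. A median of 71.5% of the NPC H3K27ac reads of a member fell into its best 2500 bp, and 261 members had over 50% there. Only 6 of 300 members reached 1 RPM in 20 or more bins. The word domain therefore describes a dense tile, usually with 1 concentrated part, more often than a wide block. Members rarely touched, forming 285 runs, of which 271 were single tiles, 13 were pairs and 1 held 3 tiles. They lay on every autosome, with the highest share of tiles on chromosome 17 (25 members, 0.392% of its tiles) and the lowest on chromosome 3 (11 members, 0.0950%).

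The members with the most NPC H3K27ac differed widely in ES cells. The first, chr12:112137501-112150000, had 252 RPM in NPCs, against 25 and 27.1 RPM of H3K27ac in the ES libraries. The second, chr15:77637501-77650000, had 221 RPM in NPCs, against 99.6 and 97.3 RPM in ES cells. It was also high in liver H3K27ac (105 RPM) and MEF H3K4me1 (195 RPM). The third, chr7:44337501-44350000, had 203 RPM in NPCs, against 4.62 and 6.23 RPM in ES cells. The fourth, chr12:68137501-68150000, had 197 RPM in NPCs, against 3.15 and 3.76 RPM in ES cells. The fifth, chr13:84200001-84212500, had 188 RPM in NPCs, against 6.65 and 8.46 RPM in ES cells. The first and second members thus carried H3K27ac in ES cells too, while the other 3 were at or near the ES WCE level in that mark (5.50, 4.23 and 6.62 RPM of WCE). The fifth had ES H3K4me1, with 13.7, 15.3 and 14.2 RPM.

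The only run of 3 members, chr13:84187501-84225000, spanned 37.5 kb. Its tiles had 70.5 to 188 RPM of NPC H3K27ac, against 1.69 to 8.46 RPM of ES H3K27ac. Rfx1 reads were uneven along it, with 4, 24 and 114 distinct reads in the tiles by position.

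**Figure D1:**
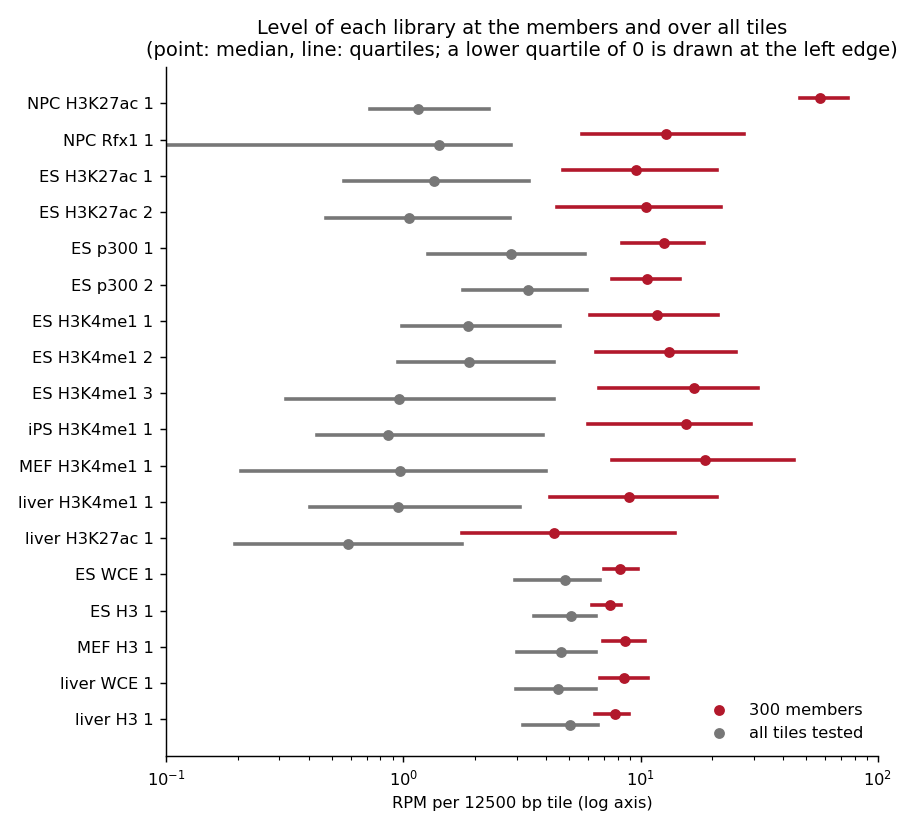
Median (point) and quartiles (line) of RPM per 12500 bp tile in 18 of the libraries, on a log axis, for the 300 members (red) and all 171336 tiles tested (grey). NPC H3K27ac chose the members. Rfx1 had a median of 12.8 RPM at members against 1.42 RPM over all tiles, while ES WCE had 8.17 RPM at members against 4.79 RPM.

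Rfx1, the factor measured in the same cells, was dense at many members. Its median was 12.8 RPM at members (0 to 351 RPM), against 1.42 RPM over all tiles. The mean over members was 8.50 times that over all tiles, beside 1.69 times for ES WCE. Members held 0.694% of all distinct Rfx1 reads (95% interval 0.675 to 0.714%), and 0.249% of ES WCE reads (0.246 to 0.253%). A tile was called for a single library where its RPM was at least 2-fold the background RPM and 10 or more reads lay in one of the 2 libraries. By this rule Rfx1 was at least 2-fold over ES WCE at 120 members (40%), against 2.33% of all tiles. The median ratio of Rfx1 to ES WCE was 1.56 at members, against 0.38 over all tiles, so most members stood above the genome but fewer than 1 in 2 reached 2-fold. The Rfx1 counts were small. A member had a median of 9 distinct Rfx1 reads, 77 members had under 5 and 7 had none. A count of 0 here allows up to 3 reads.

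At 300 tiles chosen by the same rule from ES H3K27ac, Rfx1 was called at 31, and at 300 tiles chosen from liver H3K27ac it was called at 24. Rfx1 medians were 12.8 RPM at the NPC tiles, 7.10 RPM at the ES tiles and 4.26 RPM at the liver tiles. The share of Rfx1 reads was 0.694% in the NPC tiles, 0.320% (0.307 to 0.334%) in the ES tiles and 0.218% (0.207 to 0.229%) in the liver tiles. The intervals do not overlap but cover counting error only, and 1 Rfx1 library gives no replicate check of the order. The NPC tiles shared 19 tiles (6.33% of each set) with the ES tiles and 8 (2.67% of each set) with the liver tiles, and 2 tiles were in all 3 sets.

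The members with the largest Rfx1 ratios were spread over the ranks of NPC H3K27ac. The largest ratio was at chr13:84212501-84225000, the last tile of the run on chromosome 13, with 162 RPM of Rfx1 (114 reads) against 3.95 RPM of ES WCE, a 41.0-fold ratio, at rank 82 by H3K27ac. The most Rfx1 reads, 247, were at chr8:97875001-97887500, with 351 RPM against 11 RPM of ES WCE, at rank 8. Then came chr6:55362501-55375000 (118 against 5.36 RPM, rank 207), chr4:136950001-136962500 (196 against 9.72 RPM, rank 191) and chr15:85437501-85450000 (145 against 9.02 RPM, rank 50). The first member by rank, chr12:112137501-112150000, had 139 RPM of Rfx1 (98 reads, 14.7-fold over ES WCE), and the fourth, chr12:68137501-68150000, had 58.2 RPM (41 reads, 13.8-fold). In contrast, chr15:77637501-77650000, with 221 RPM of NPC H3K27ac, had 4 Rfx1 reads (5.68 RPM against 11.3 RPM of ES WCE). Among the 5 with the largest ratio, 4 had 1.69 to 14.2 RPM of ES H3K27ac, and chr4:136950001-136962500 had 20.2 and 21.6 RPM.

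Within a member, Rfx1 reads tended to lie where the NPC H3K27ac was densest. Of the 75 members with 20 or more Rfx1 reads, 58 had their best 500 bp bin for Rfx1 within 1000 bp of that for H3K27ac, with a median distance of 500 bp. A median of 45.5% of their Rfx1 reads fell into the best 500 bp. Averaged over all members, Rfx1 had 4.81 RPM per 500 bp at the bin with the most NPC H3K27ac, against 0.883 RPM at the flanks of the window. ES WCE had 0.404 RPM there, against 0.312 RPM at the flanks, and ES H3 had 0.259 against 0.287 RPM. Repeated reads made up 72.1% of the Rfx1 reads at members, and with repeats counted 40.3% of members were called over ES WCE. With repeats counted once this was 40%, against 2.33% of all tiles. The share of all tiles with repeats counted is not given here.

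**Figure D2:**
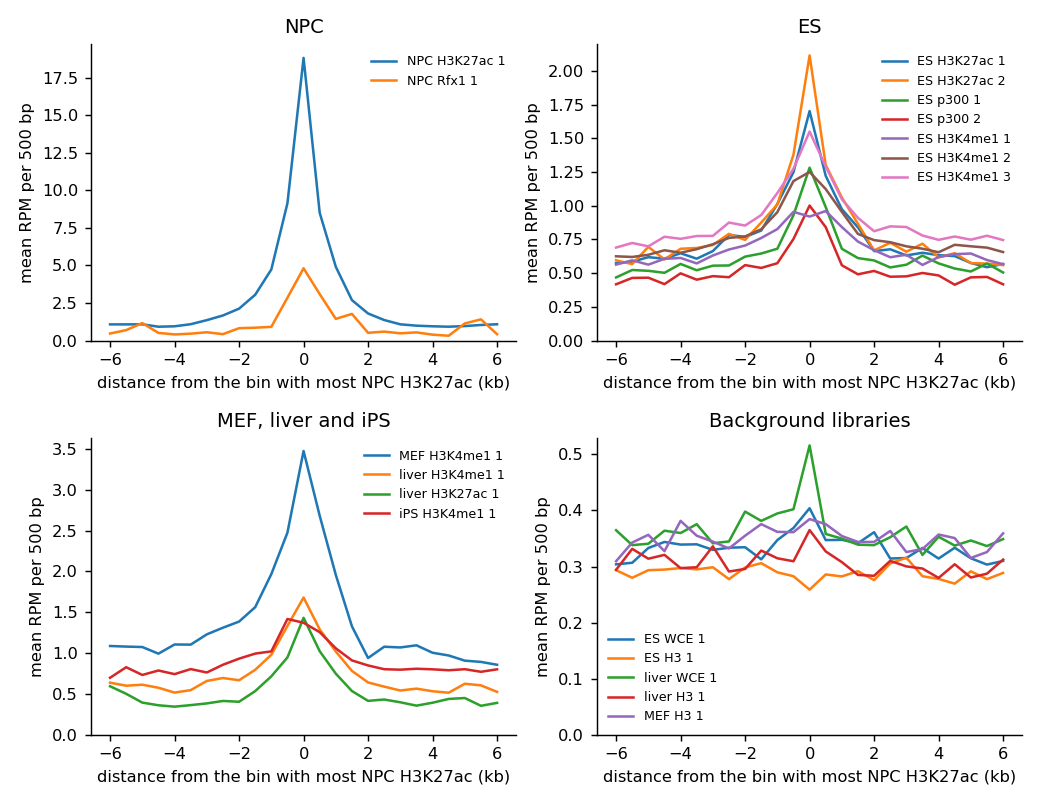
Mean RPM per 500 bp by distance in kb from the bin with the most NPC H3K27ac reads of each of the 300 members, with 1 line per library and a separate vertical scale in each panel. The NPC H3K27ac peak follows from how the bin was chosen. Rfx1 (4.81 RPM), MEF H3K4me1 (3.47 RPM) and ES H3K27ac (1.70 and 2.12 RPM) also peak there. ES H3, which the rule subtracted, does not (0.259 RPM). The other background libraries are highest there too, with 0.404 RPM for ES WCE and 0.516 RPM for liver WCE. Liver H3 has 0.365 RPM and MEF H3 0.385 RPM.

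By rank of NPC H3K27ac, Rfx1 calls covered 54.7% of members of rank 1 to 75, 34.7% of rank 76 to 150, 41.3% of rank 151 to 225 and 29.3% of rank 226 to 300. Beyond the members, 22.3% of tiles of rank 301 to 600 and 13.3% of rank 2401 to 4800 were called. The share was highest in the first rank band, and it did not fall steadily within the members.

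**Figure D3:**
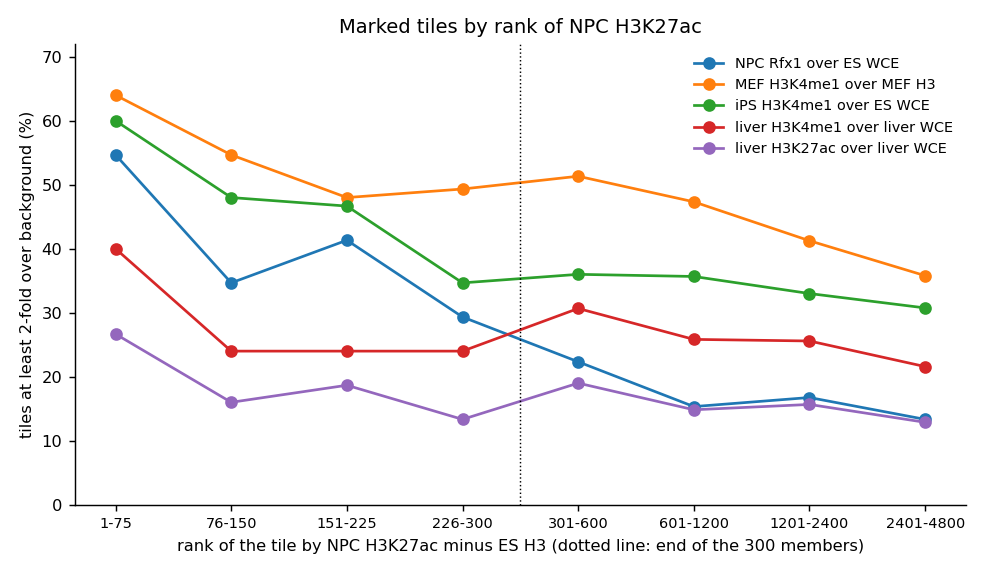
Percent of tiles at least 2-fold over the named background, by rank of NPC H3K27ac minus ES H3, with the end of the members marked by a dotted line. Rfx1 calls were at 54.7% in rank 1 to 75 and 29.3% in rank 226 to 300, and MEF H3K4me1 calls were at 64.0% and 49.3% in the same bands.

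The marks that ES cells already carried at members were the next question, since NPCs arise from such cells. ES H3K4me1 had medians of 11.8, 13.2 and 16.8 RPM at members in the 3 libraries, against 1.88, 1.89 and 0.957 RPM over all tiles. In a limma fit over all tiles (log2 CPM, library-size scaling), H3K4me1 exceeded ES WCE at adjusted p under 0.05 in 135 members (45%), against 7.3% of all tiles. It was lower than ES WCE in 22 members, against 23% of all tiles. The median log2 difference from ES WCE was 0.73 at members and -1.29 over all tiles. With the 3 ES H3K4me1 libraries and WCE fitted alone, 18% of members were called higher, against 2.37% of all tiles.

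ES H3K27ac had medians of 9.58 and 10.6 RPM at members, against 1.35 and 1.06 RPM over all tiles. It exceeded ES WCE in 105 members (35%), against 4.36% of all tiles, and was lower in 50 members, against 53.6% of all tiles (limma, adjusted p under 0.05). The median log2 difference was 0.34 at members and -1.61 over all tiles. Without the second ES H3K27ac library the members' median was 0.27 beside -1.45 over all tiles, and without the first 0.32 beside -1.69. Fewer members, and fewer of all tiles, were called higher in either case. With an H3K4me3 threshold of 2 RPM and members chosen anew, their median turned to -0.13 beside -1.66 over all tiles, with 25.3% of members called higher and 25.7% lower, against 3.06% and 54.9% of all tiles. A trimmed mean of M-values (TMM), a scaling to the bulk of tiles, moved the median of all tiles to -0.11 for H3K27ac, -0.25 for H3K4me1 and 0.08 for p300. The members' medians under TMM were 2.01, 1.90 and 1.05, with 60.3% of members called higher and 0% lower for H3K27ac, against 12.7% and 0.261% of all tiles, and 65.3% higher and 0% lower for H3K4me1, against 15.2% and 0.128%. The members' medians were above those of all tiles under either scaling.

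The H3K27ac and H3K4me1 comparisons use the same WCE library, so the marks were crossed by a rule with no shared background. A tile was high in a group where every library of it had at least 3 times its own mean over all tiles and 10 or more reads. By this rule 141 members were high in ES H3K27ac, against 6.21% of all tiles, and 134 in ES H3K4me1, against 6.16%. Of the 300 dense liver tiles, 132 were high in ES H3K27ac and 112 in ES H3K4me1. High ES marks were thus not particular to the NPC tiles. No member was high in ES WCE or ES H3, against 0.0146% and 0.00934% of all tiles. There were 113 members high in both marks, 28 in H3K27ac alone and 21 in H3K4me1 alone. The remaining 138 members (46.0%, against 92.2% of all tiles) were high in neither, with a median of 53.5 RPM of NPC H3K27ac beside 4.51 and 4.11 RPM of ES H3K27ac. By RPM, members thus ran from already acetylated in ES cells to below ES WCE there (a median of 7.12 RPM of ES WCE in the class with neither mark). Over all tiles with neither mark the medians were lower, with 1.13 and 0.940 RPM of ES H3K27ac beside 4.51 RPM of ES WCE. The comparison with WCE depends on the scaling, since under TMM 0% of members were called lower in H3K27ac.

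The clearest ES H3K27ac was at chr11:117125001-117137500, with 147 and 179 RPM against 12.8 RPM of ES WCE (log2 difference 3.63, SE 0.38, limma adjusted p = 0.000623). NPCs had 186 RPM of H3K27ac there. At chr2:30887501-30900000 the ES libraries had 105 and 92.1 RPM against 7.75 RPM of WCE (3.62, SE 0.29, limma adjusted p = 0.000578), and NPCs had 46.8 RPM. The tile chr2:157150001-157162500 had 111 and 150 RPM against 12.1 RPM (3.38, SE 0.39, limma adjusted p = 0.000905), and NPCs had 44.5 RPM. In the last 2 of these the NPC level was the lower of the compared cells, although both tiles passed the rule.

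ES H3K4me1 stood out most at chr5:114125001-114137500, with 64.1, 83.9 and 60.1 RPM against 9.58 RPM of WCE (log2 difference 2.81, SE 0.30, limma adjusted p = 0.00112). The others named by the same rule were chr16:32575001-32587500 (2.79, SE 0.26) and chr4:132225001-132237500 (2.79, SE 0.30), with the same adjusted p by limma. All 3 were also high in ES H3K27ac, with 58.0 to 83.2 RPM over the libraries.

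p300 in ES cells was called at fewer members than either mark. Its medians at members were 12.6 and 10.6 RPM, against 2.83 and 3.34 RPM over all tiles. By limma at an unadjusted p under 0.05, p300 exceeded ES WCE in 105 members and was lower in 1, against 4.46% and 3.80% of all tiles. By limma-voom at adjusted p under 0.05 it was higher in 45 and lower in 0, against 1.46% and 0.125%. By limma at adjusted p under 0.05 it exceeded ES WCE in 23 members (7.67%), against 0.937% of all tiles, and was lower in 0, against 0.0327%. These calls are fragile, since leaving out either p300 library or scaling by TMM left 0. By the 2-fold rule with both libraries over ES WCE, a rule added after the calls were seen, 46 members (15.3%) were called, against 1.85% of all tiles. The same rule called 273 of the 300 dense ES tiles and 25 of the dense liver tiles.

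The largest p300 difference was at chr17:88412501-88425000, with 39.7 and 36.9 RPM against 7.47 RPM of WCE (log2 difference 2.32, SE 0.26, limma adjusted p = 0.00531). The tiles chr17:26962501-26975000 (60.3 and 47.8 RPM against 10.9 RPM) and chr4:132225001-132237500 (40.4 and 28.0 RPM against 7.33 RPM) followed. All 3 also had ES H3K27ac, with 31.1 to 74.6 RPM. The calls at all 3 were lost when either p300 library was left out. By the own-mean rule p300 was high at 94 members, against 2.87% of all tiles, and 81 of these were among the 113 high in both ES marks (71.7%, against 51.7% of all tiles with both). Of the 138 members high in neither ES mark, 4 were high in p300 (2.90%, against 0.179% of all tiles with neither).

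Rfx1 crossed these classes. By the own-mean rule it was high at 148 members, against 1.97% of all tiles. It was high in 69 of 113 members (61.1%) with both ES marks, 16 of 28 (57.1%) with H3K27ac alone, 12 of 21 (57.1%) with H3K4me1 alone and 51 of 138 (37.0%) with neither. Over all tiles the shares were 14.9%, 18.4%, 5.67% and 0.973%. Rfx1 and ES p300 were high together at 59 members, Rfx1 without p300 at 89 and p300 without Rfx1 at 35, which are 19.7%, 29.7% and 11.7% of members, against 0.455%, 1.52% and 2.41% of all tiles. Rfx1 was thus also dense at members with little ES signal. The differences between these classes were not tested. For Rfx1 the floor of 10 reads was the stricter part of the own-mean rule. A tile with 10 Rfx1 reads had 14.2 RPM, beside a mean of 2.72 RPM over all tiles.

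**Figure D4:**
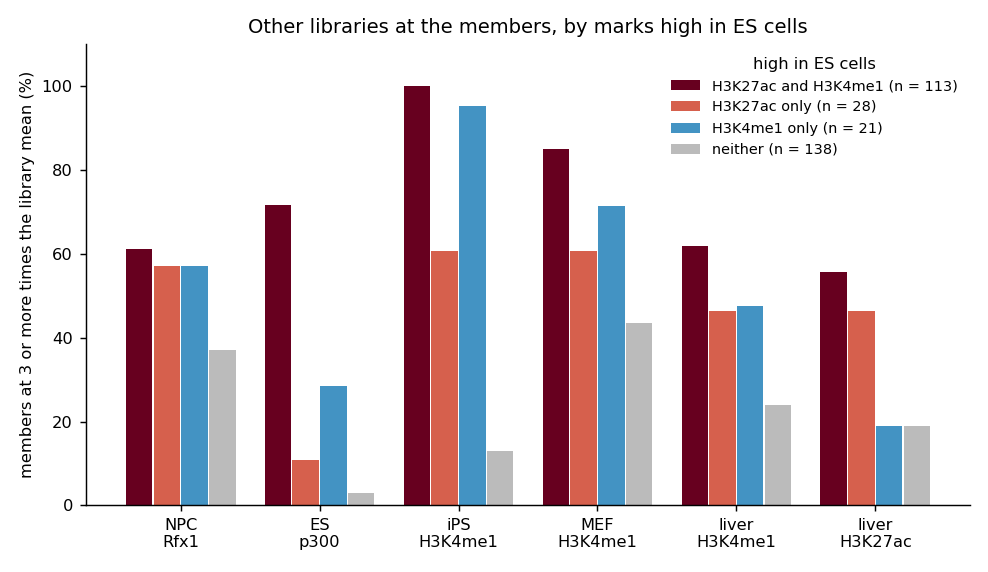
Percent of members at 3 or more times the library's own mean, for Rfx1, p300 and the marks of other cells, by the ES marks high at the member. The 4 classes hold 113, 28, 21 and 138 members. Rfx1 was high at 61.1% of members with both ES marks and 37.0% with neither, while p300 was high at 71.7% and 2.90%.

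MEF H3K4me1 was the mark of another cell type that was called at the largest number of members. Its median was 18.6 RPM at members, against 0.969 RPM over all tiles, with MEF H3 at 8.57 against 4.6 RPM. It was at least 2-fold over MEF H3 at 162 members (54%), against 6.75% of all tiles. The same call was made at 159 dense ES tiles (53%) and 136 dense liver tiles (45.3%), so it was not particular to the NPC tiles. MEF H3K4me1 exceeded ES H3K4me1 in 83 members (27.7%), against 7.1% of all tiles, and was lower in 34, against 13.6% of all tiles (limma, adjusted p under 0.05). The median log2 difference from ES was 0.59 at members and -0.67 over all tiles. Under TMM it was 1.30 at members and -0.15 over all tiles, with 13% of members called higher and 0.667% lower, against 8.89% and 4.37% of all tiles. Without the third ES H3K4me1 library 42.3% of members were called higher, against 12.96% of all tiles. Without the second, 7.33% of members were called lower, against 10.02% of all tiles.

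The largest rise over ES H3K4me1 was at chr2:33575001-33587500, with 77.5 RPM in MEFs against 4.36, 5.14 and 3.51 RPM in ES cells (log2 difference 4.10, SE 0.28, limma adjusted p = 0.00266). At chr18:5125001-5137500 the values were 41.9 RPM against 1.99 to 2.87 RPM (4.03, SE 0.28), and at chr6:114675001-114687500 they were 23.8 RPM against 0.957 to 2.62 RPM (3.71, SE 0.53). These 3 were high in NPCs and MEFs and below 10 RPM in ES H3K27ac. The largest fall was at chr11:71575001-71587500, with 1.04 RPM in MEFs against 38.9, 35.7 and 36.8 RPM in ES cells (-4.87, SE 0.21, limma adjusted p = 0.00266). The tiles chr16:91075001-91087500 and chr2:150325001-150337500 had 0.692 and 0.969 RPM in MEFs (log2 differences -4.26 and -3.81), the first of which was not called under TMM.

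Liver marks were called at fewer members than MEF H3K4me1. Liver H3K4me1 had a median of 8.97 RPM at members, against 0.945 RPM over all tiles, and was at least 2-fold over liver WCE at 84 members (28%), against 6.75% of all tiles. Liver H3K27ac had a median of 4.30 RPM at members, against 0.587 RPM over all tiles, and was 2-fold over liver WCE at 56 members (18.7%), against 4.05%. At the dense ES tiles liver H3K4me1 was called at 120 (40%) and liver H3K27ac at 83 (27.7%). Liver WCE had a median of 8.47 RPM at members, so by RPM the liver H3K27ac median lay below that of WCE. The same held over all tiles, where liver WCE had a median of 4.49 RPM. The median ratio of liver H3K27ac to liver WCE was 0.515 at members, against 0.157 over all tiles.

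Against ES cells, liver H3K27ac was lower in 136 members (45.3%), against 15.8% of all tiles, and higher in 30 (10%), against 5.32% (limma, adjusted p under 0.05). The median log2 difference was -1.05 at members and -0.58 over all tiles. Under TMM 32% of members were lower and 15.7% higher, against 14.4% and 10.4% of all tiles, with medians of -0.45 at members and -0.20 over all tiles. This fit has 1 residual degree of freedom, and with all reads kept no member passed. Liver H3K4me1 was lower than in ES cells in 86 members (28.7%), against 15.3% of all tiles, and higher in 36 (12%), against 5.63%. Its median log2 difference was -0.39 at members and -0.57 over all tiles. Under TMM the members' median turned to 0.30 beside -0.06 over all tiles, with 5% called higher and 1% lower, against 5.43% and 3.04% of all tiles. The members then had no excess of calls over all tiles in either direction, so the balance of H3K4me1 between liver and ES cells depends on the scaling. Without the second ES H3K4me1 library 7.67% of members were called higher, against 4.63% of all tiles, and without the third 20.3%, against 9.54%.

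**Figure D5:**
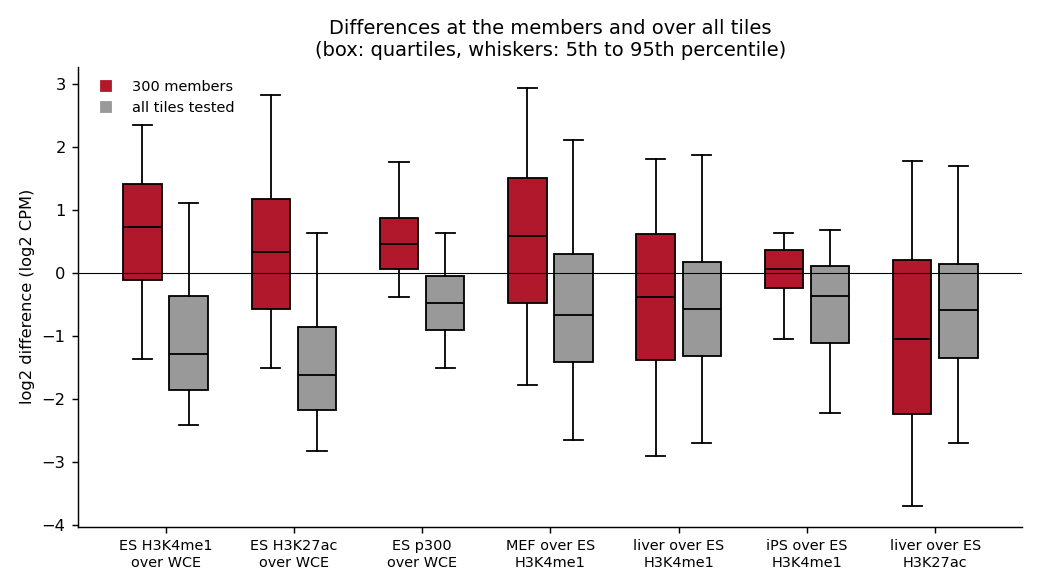
Log2 differences (log2 CPM, library-size scaling) of the 300 members (red, left of each pair) and all tiles (grey) for 7 comparisons, with boxes at the quartiles and whiskers at the 5th and 95th percentiles. The members' median is 0.59 for MEF over ES H3K4me1 (1.30 under TMM), -0.39 for liver over ES H3K4me1 (0.30 under TMM) and -1.05 for liver over ES H3K27ac (-0.45 under TMM).

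Some members were strongly marked in liver. At chr14:63100001-63112500 liver had 60.3 RPM of H3K27ac against 3.94 and 2.70 RPM in ES cells (log2 difference 4.10, SE 0.30, limma adjusted p = 0.0108). Liver H3K4me1 there was 65.5 RPM against 2.39 to 3.66 RPM in ES cells (4.32, SE 0.31, limma adjusted p = 0.00226), and MEFs had 2.42 RPM. The tile chr15:85525001-85537500 had 117 RPM of liver H3K27ac against 9.35 and 11.2 RPM in ES cells (3.49, SE 0.24), and its liver H3K4me1 was 124 RPM against 7.72 to 8.77 RPM (3.89, SE 0.23). The tile chr8:129550001-129562500 had 103 RPM against 12.7 RPM in each ES library (2.99, SE 0.23). For H3K4me1 the third was chr6:90662501-90675000, with 131 RPM in liver against 11.4 to 19.6 RPM in ES cells (3.03, SE 0.40), a call lost under TMM.

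Other members were marked in ES cells and bare in liver. The lowest in liver H3K27ac was chr2:157150001-157162500, with 2.74 RPM against 111 and 150 RPM in ES cells (-5.42, SE 0.31, limma adjusted p = 0.0106). Next came chr16:32425001-32437500, with 1.96 RPM against 96.8 and 92.4 RPM (-5.41, SE 0.22), and chr17:29600001-29612500, with 0.196 RPM against 16 and 16.3 RPM (-5.14, SE 0.19). The first 2 belong to the dense ES tiles. In H3K4me1 the lowest was chr2:150325001-150337500, with 0.675 RPM in liver against 16.5, 14.3 and 19.8 RPM in ES cells (-4.21, SE 0.27, limma adjusted p = 0.00216). That tile had no Rfx1 read and 0.969 RPM in MEFs, so among the cells measured it was marked in NPCs, ES cells and iPS cells (15.5 RPM). The falls at chr2:157150001-157162500 (-3.74, SE 0.39) and chr3:88312501-88325000 (-3.73, SE 0.48) in liver H3K4me1 were not called under TMM.

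iPS cells, reprogrammed from MEFs, had a median of 15.5 RPM of H3K4me1 at members, against 0.862 RPM over all tiles, and were at least 2-fold over ES WCE at 142 members (47.3%), against 7.3% of all tiles. No member differed from ES H3K4me1 in either direction by limma or limma-voom at adjusted p under 0.05, against 0% of all tiles. By limma at an unadjusted p under 0.05, 5 members were higher and 18 lower, against 1.10% and 12.5% of all tiles. Without the third ES H3K4me1 library 1.67% of members were called higher and 5.67% lower, against 0.554% and 24.7% of all tiles. The iPS library had 2321106 distinct reads and the fit 2 residual degrees of freedom, so differences may be missed at this depth. By the own-mean rule iPS H3K4me1 was high at 168 members, against 9.32% of all tiles, and MEF H3K4me1 at 188, against 8.72%. iPS H3K4me1 was high in all 113 members with both ES marks (98.3% of all tiles with both), and in 18 of 138 with neither (13%, against 2.71% of all tiles with neither). MEF H3K4me1 was high in 60 of those 138 (43.5%, against 6.09%).

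Many members were marked in several of the other cells. By the own-mean rule liver H3K4me1 was high at 126 members, against 8.46% of all tiles, and liver H3K27ac at 106, against 7.14%. Taking ES cells (H3K27ac or H3K4me1), MEFs (H3K4me1) and liver (either mark), 89 members (29.7%, against 1.78% of all tiles) were high in all 3. There were 39 high in ES cells and MEFs (13%, against 1.33%), 26 in MEFs and liver (8.67%, against 1.72%) and 9 in ES cells and liver (3.00%, against 1.29%). In 1 kind of cell alone, 25 were high in ES cells (8.33%, against 3.39%), 34 in MEFs (11.3%, against 3.90%) and 10 in liver (3.33%, against 4.88%). In none of ES, iPS, MEF and liver libraries were 62 members (20.7%, against 80.2% of all tiles) high, and Rfx1 was high at 21 of these 62 (7.00% of members, against 0.438% of all tiles). Among the backgrounds, liver WCE was high at 19 members and MEF H3 at 8, against 0.222% and 0.0683% of all tiles. The part of such background in the liver and MEF counts was not tested.

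The 2 members that were dense in NPCs, ES cells and liver alike were chr15:77637501-77650000 and chr11:117125001-117137500. Their NPC H3K27ac was 221 and 186 RPM, their liver H3K27ac 105 and 120 RPM, and their MEF H3K4me1 195 and 240 RPM. Although the rule dropped tiles with strong H3K4me3, 104 of the 300 members held a 1 kb bin with at least 2 RPM of it in ES cells or liver, against 10787 of the 171336 tiles tested. With those tiles dropped and members chosen anew, 196 of the 300 were kept, Rfx1 was called at 32% of members and MEF H3K4me1 at 49.7%. At the threshold of 4 RPM these calls were at 40% and 54% of members, against 2.33% and 6.75% of all tiles. Their shares of all tiles at 2 RPM are not given here. Promoters active only in NPCs could remain among the members, since no NPC H3K4me3 library was used here.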

How the data were processed

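Each deposited file lists the aligned reads of 1 library as signed positions under chromosome names, with a minus sign for the reverse strand. The authors deposited positions, neither counts nor a normalised signal. Per the labels' protocols, chromatin was sonicated to fragments of about 500 bp on average, amplified with 18 PCR cycles and gel-selected at 200 to 350 bp. No source used here names the aligner or the build. Where 2 libraries of a group were compared, they differed by more than sampling noise (chi-square per degree of freedom 1.43 to 4.10) and were kept apart.

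Reads repeated at a position and strand were counted once, moved by 100 bp toward the fragment centre and summed in tiles of 12500 bp. Counts were made from positions, so limma-trend 3.58.1 in R 4.3.3 was run on log2 CPM (prior count 2, which understates differences of low tiles) over 171336 tiles, with Benjamini-Hochberg adjustment at 0.05, and tested on simulated data. The fits were ES marks against WCE (4 residual degrees of freedom), H3K4me1 of liver, MEF and iPS against ES (2) and H3K27ac of liver against ES (1). A group with 1 library is assumed to vary like the others, and comparisons with ES share the ES libraries. The p-values measure the spread between libraries. The ES H3K4me1 libraries came from cells of different genotypes, so their spread includes differences between those cells. For the other groups the labels do not say that libraries came from separate cultures, and that spread may be technical. Intervals of shares are Wilson 95% intervals for counting error, and PCR reads are not independent molecules.

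Regions named are the 5 of highest rank, the 2 on each side of the threshold, the longest run, the 5 largest Rfx1 ratios with 20 or more reads, and the 3 largest differences past the threshold per comparison and direction. The shared tiles were added after their values were seen, and so were the own-mean rule and the 2-fold rule over every library. The members and lists were chosen with earlier results of these data known. Alternatives tried were all reads, a grid moved by 6250 bp, the first 150 members, an H3K4me3 threshold of 2 RPM, TMM, limma-voom, a prior of 0.5, a filter of 10 reads, ES H3 or liver H3 as background, marks fitted alone, 3-fold calls and libraries left out. Sequences and gene names were not used here.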

Additional observations from a re-analysis of the deposited data

How the results depend on the processing

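No paired analysis was possible because the groups compared share no replicate numbers in the labels. No named region changed direction, but the members' median log2 difference changed sign in 3 cases: liver against ES H3K4me1 was 0.30 with TMM (-0.39 as reported), ES H3K27ac against WCE was -0.13 with an H3K4me3 threshold of 2 RPM (0.34), and iPS against ES H3K4me1 was -0.01 without the first ES library (0.07). The percent of members called higher in ES H3K4me1 over WCE was 45, and 18 with the mark fitted alone (41.7 to 50 leaving out 1 library). The percent of all tiles was 7.3, and 2.37 with the mark fitted alone (6.45 to 7.56 leaving out 1 library). The values that follow are percents of members unless all tiles are named. For ES H3K27ac over WCE it was 35, and 60.3 with TMM (17 to 28.3 leaving out 1 library). The shares of all tiles were 4.36 and 12.7 (1.78 to 2.88). For p300 it was 7.67, and 0 with TMM, 15 with limma-voom, 18.3 with the 10-read filter and 2.67 with an H3K4me3 threshold of 2 RPM. The shares of all tiles were 0.937, 0.00992, 1.46, 2.01 and 0.368. For p300 fitted alone it was 1.67, with ES H3 as background 18.7 and by the 2-fold rule in both libraries 15.3. The shares of all tiles were 0.231, 1.75 and 1.85. The limma calls were lost when either p300 library was left out.

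Liver over ES H3K4me1 was called higher in 12% of members, and 5 with TMM, 19 with limma-voom and 20.7 with the filter (7.67 to 20.3 leaving out 1 library). The shares of all tiles were 5.63, 5.43, 9.18 and 10.9 (4.63 to 9.54). Liver H3K4me1 was called lower in 28.7%, and 1 with TMM, against 15.3 and 3.04 of all tiles. MEF over ES was higher in 27.7%, and 13 with TMM, 45.3 with limma-voom and 42.7 with the filter (21 to 42.3 leaving out 1 library). The shares of all tiles were 7.1, 8.89, 13.75 and 14.17 (5.7 to 12.96). MEF H3K4me1 was lower in 11.3%, and 0.667 with TMM and 17.7 with the filter (7.33 to 15.7). The shares of all tiles were 13.6, 4.37 and 23.36 (10.02 to 43.25). iPS over ES was 0 either way, and 0.667 higher and 2.67 lower with the filter (0 to 1.67 higher and 0 to 5.67 lower leaving out 1 library). The shares of all tiles with the filter were 0.121 and 4.70 (0 to 0.554 and 0 to 24.7 leaving out 1 library). Liver over ES H3K27ac was higher in 10%, and 15.7 with TMM, 18 with the filter and 0 with all reads kept, against 5.32, 10.4, 13.5 and 0 of all tiles. It was lower in 45.3%, and 0 with all reads kept, against 15.8 and 0 of all tiles. With 1 ES H3K27ac library left there is no residual degree of freedom.

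At 3-fold, calls were 15% for liver H3K4me1, 12.3% for liver H3K27ac and 28.3% for iPS H3K4me1, beside 28, 18.7 and 47.3% at 2-fold. The shares of all tiles at 2-fold were 6.75, 4.05 and 7.3%. Those at 3-fold are not given here, so the change in the excess over all tiles cannot be read from these calls. The overlap with the dense ES tiles was 2.33% with an H3K4me3 threshold of 2 RPM (6.33% as reported), and with the dense liver tiles 4.67% for the first 150 members (2.67% as reported). The cause was not tested, except that the filter tests fewer tiles and leaving out a library leaves fewer. Of 276 repeats of the log2 differences of named regions, 251 were counted as unchanged and 25 lost their call, all in the same direction. The 251 include 6 repeats of liver against ES H3K27ac for each ES H3K27ac library left out. Those have no p-value and were counted as unchanged because the difference moved by less than 1 SE. Depth limits Rfx1 most, with 704647 distinct reads, and iPS next.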
